A study of Gallus gallus with 18 samples.

Results

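The insulin-like growth factor (IGF) genes examined here are 10 genes of one signalling family: the ligands IGF1 and IGF2, the receptors IGF1R, IGF2R and INSR, and the binding proteins IGFBP2, IGFBP3, IGFBP4, IGFBP5 and IGFBP7. They were taken by symbol from a deposited table of 30108 genes, and each of the 10 symbols had 1 row. Of these, 9 had enough counts to be tested, and IGF1 did not.

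The samples were trigeminal ganglia of wild-type chicken embryos, dissected and pooled at 3 stages, and the number of ganglia in a pool is not given in the sources used here. The trigeminal ganglion is the sensory ganglion of the face, and it forms from neural crest cells together with placodal cells of the surface ectoderm. Stages are those of Hamburger and Hamilton (HH), assigned from the outward shape of the embryo, here HH13-14, HH15-16 and HH17-18. Each stage had 3 pools, given as biological replicates 1 to 3, and each pool had 2 technical replicates, labelled with lane 7 and lane 8, in poly(A)-enriched libraries. No group carried a transgene or a treatment, so that stage is the only difference the labels name.

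IGF1 and IGF2 are secreted ligands that signal through the receptor tyrosine kinase IGF1R, and also through INSR, the insulin receptor, by way of adaptors of the IRS family, PI3-kinase, AKT and the TOR kinase. In mammals IGF2R carries no kinase and takes IGF2 to lysosomes, in addition to sorting lysosomal enzymes. The binding proteins hold IGFs outside the cell, and proteases that cut them set the ligand free. The pathway is known for its part in the growth and survival of embryonic tissues, neurons among them.

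Depth was 26505315 to 34424153 counts in the 18 libraries, and 53458986 to 68083147 in the 9 pools made by summing technical replicates. Levels are given as CPM, the count of a gene scaled to a common library total, with library sizes adjusted by the trimmed mean of M-values (TMM). Transcript lengths were not used here, so levels are compared between stages of a gene and not between genes. All 12 neuron markers, 9 of 10 neural crest and glia markers and all 8 trigeminal placode markers listed lay above a mean of 1 CPM, and the remaining crest symbol, SNAI2, was not found. Markers of other tissues were present too. The sums of the head mesenchyme list (11 of 12 symbols found) were 1901 to 4240 CPM over the pools, those of the neural tube list (11 of 11) 605 to 1571 CPM, and those of the endothelium list (11 of 12) 372 to 651 CPM. In such bulk samples fewer cells of a type and less RNA per cell cannot be told apart. Replicate 1 of HH15-16 had the lowest head mesenchyme sum and the highest neural tube sum, and replicate 2 of HH17-18 had the highest head mesenchyme sum and the lowest neural tube sum.

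The question put to each gene was whether its transcript level changed over these stages. None of the 9 genes tested passed an adjusted p of 0.05 in edgeR's quasi-likelihood test, for the effect of stage, for any pair of stages or for the difference between the later and the earlier step. Over HH13-14 to HH17-18, 0 of 9 passed against 4.51% of all 17724 genes tested, 2 had an unadjusted p under 0.05 (21.6% of all genes), and DESeq2 called 2 (9.62% of the genes it tested). The effect of stage gave 0 of 9 against 1.3%, with 2 at an unadjusted p under 0.05 (16.7% of all genes) and 1 in DESeq2 (7.6%). From HH15-16 to HH17-18 it was 0 of 9 against 0.079%, with 2 at an unadjusted p under 0.05 (9.32% of all genes) and 1 in DESeq2 (1.72%). From HH13-14 to HH15-16 no gene of the whole table passed in edgeR (0%), and among the 9 there were 0 at an unadjusted p under 0.05 (10.1% of all genes) and 0 in DESeq2 (0.605%). The difference between the steps gave 0 of 9 against 0.00564%, again with 0 at an unadjusted p under 0.05 (4.36% of all genes) and 0 in DESeq2 (0.0344%). The genes behind the 2 unadjusted values and the DESeq2 calls were IGFBP4 and IGFBP5.

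**Figure D1:**
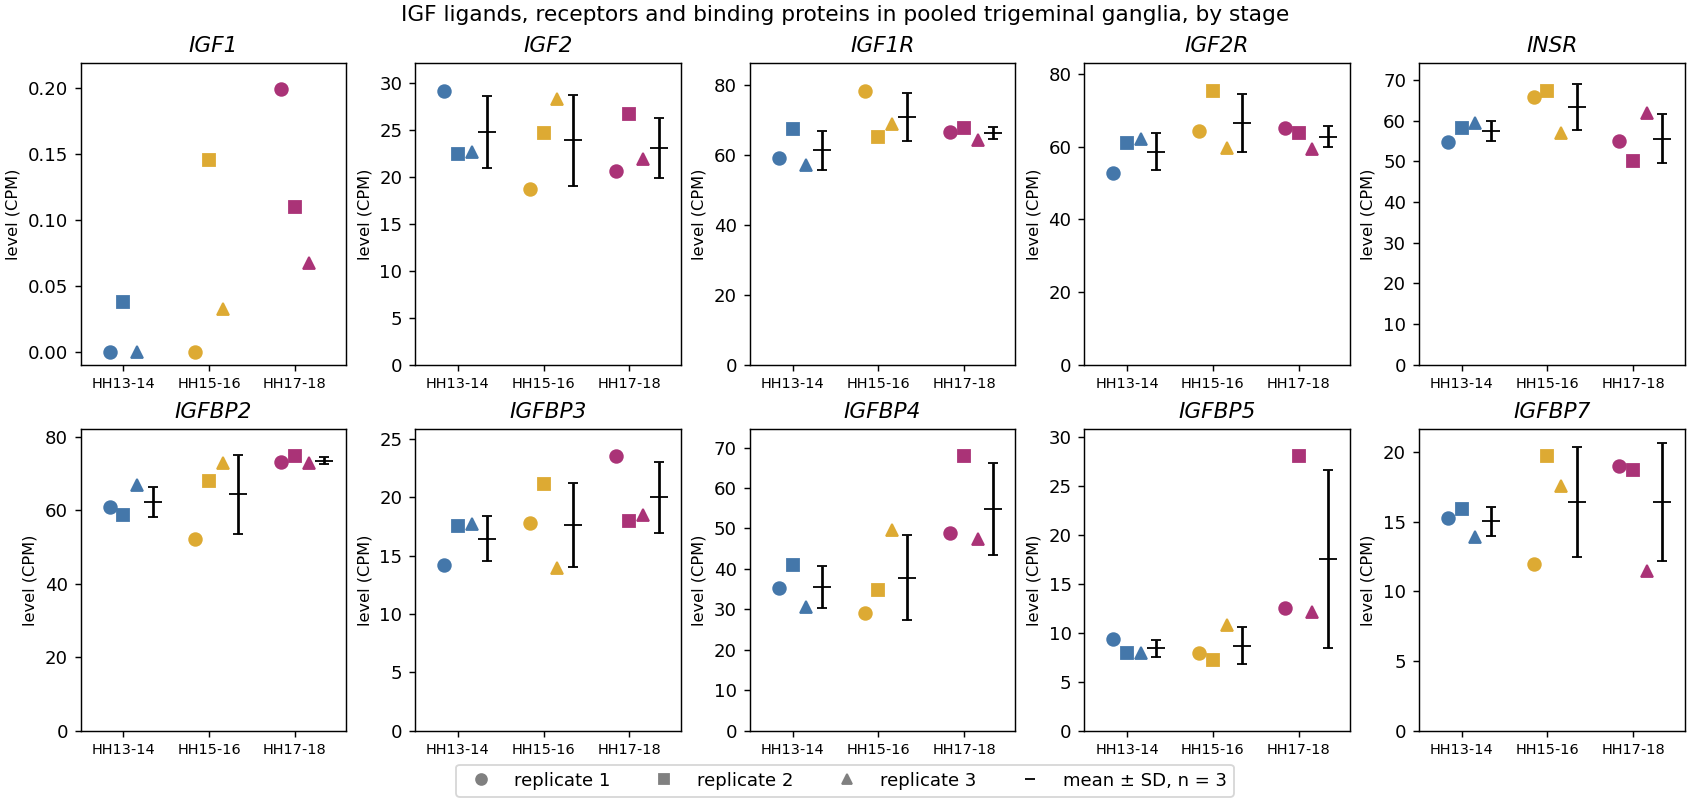
Level of each of the 10 genes (CPM, vertical axes from 0, separate scale per panel) in the 9 pools, by stage; symbols give the replicate number and bars the mean ± SD of 3 pools, left out for IGF1. IGFBP5 at HH17-18 reaches 28 CPM in replicate 2 and lies near 12 CPM in the other pools of that stage, while the pools of IGF2, IGF1R, IGF2R, INSR and IGFBP7 overlap between all stages.

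Among the ligands, IGF2 was the one with enough counts to be tested. IGF2 (ENSGALG00010024580, chromosome 5, 13375612 to 13394087, build GRCg7b) was at 29.2, 22.4 and 22.7 CPM in replicates 1 to 3 of HH13-14. It was at 18.7, 24.7 and 28.3 CPM in those of HH15-16 and at 20.6, 26.7 and 21.9 CPM in those of HH17-18. The highest pool belonged to the first stage and the lowest to the second, and the pools of all stages overlapped. The stage means were 24.8 ± 3.8, 23.9 ± 4.86 and 23.1 ± 3.22 CPM (SD, n = 3). The log2 fold change from HH13-14 to HH17-18 was -0.10 (SE 0.173, edgeR adjusted p 0.784), with a 95% interval of -0.486 to 0.281. The interval includes 0, so that neither direction was separated from the spread between pools.

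IGF1 (ENSGALG00010010259, chromosome 1, 55326358 to 55374742) was at or near the limit of detection. Its counts were 0, 2 and 0 in the pools of HH13-14, 0, 10 and 2 in those of HH15-16, and 13, 6 and 4 in those of HH17-18. The 3 pools of the last stage thus each had a count, against 1 pool of the first. A count of 0 allows up to 3 counts. Over all pools of HH13-14, 3 counts are 0.0457 to 0.0561 CPM, and the upper value is that of replicate 2, which had 2 counts. Over all pools of a stage the level was 0.0114 CPM at HH13-14 (exact Poisson 95% interval 0.00138 to 0.0411), 0.0634 CPM at HH15-16 (0.0328 to 0.111) and 0.128 CPM at HH17-18 (0.0812 to 0.192). The ratio of HH17-18 to HH13-14 was 11.2, with a counting interval of 2.78 to 98.4. These intervals cover counting error only and not the spread between pools, and of counts from 1 to 20 in a pool 63.3% to 65.8% were even, so that single counts need not be independent. With no filter on low counts, edgeR gave IGF1 an unadjusted p of 0.0338 and an adjusted p of 0.255 over 26169 genes.

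The receptors were the steadiest of the 9 genes tested. The gene-wise biological coefficient of variation, edgeR's estimate of the relative spread between pools, was 9.74% for IGF1R, 10.5% for IGF2R and 10.2% for INSR, where the median of all genes tested was 17.4%. IGFBP2 came next at 11.2%. Of all genes tested, 17.6% had a smaller value than IGF1R and 22.7% a smaller value than IGF2R.

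IGF1R (ENSGALG00010018730, chromosome 10, 16697226 to 16844358), the main signalling receptor for the IGF ligands, was at 59.2, 67.6 and 57.3 CPM in the pools of HH13-14. It was at 78.5, 65.2 and 68.9 CPM in those of HH15-16 and at 66.7, 67.8 and 64.4 CPM in those of HH17-18. The highest of the 9 values belonged to replicate 1 of HH15-16, and all stages overlapped. Its log2 fold change was 0.21 in the earlier step (SE 0.0937, edgeR adjusted p 0.496), -0.10 in the later step and 0.11 over the whole interval (95% interval -0.0961 to 0.319).

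IGF2R (ENSGALG00010006351, chromosome 3, 45169338 to 45223492) was at 52.7, 61.1 and 62 CPM at HH13-14, at 64.3, 75.4 and 59.7 CPM at HH15-16 and at 65.2, 63.6 and 59.4 CPM at HH17-18. Replicate 2 of HH15-16 was the highest pool, and all stages overlapped. INSR (ENSGALG00010027254, chromosome 28, 4561063 to 4599420) was at 54.8, 58.2 and 59.5 CPM at HH13-14, at 65.9, 67.4 and 57 CPM at HH15-16 and at 55, 50 and 61.8 CPM at HH17-18. Its lowest pool was replicate 2 of HH17-18, and again all stages overlapped. Over the whole interval the log2 fold change was 0.10 for IGF2R (95% interval -0.131 to 0.328, edgeR adjusted p 0.632) and -0.05 for INSR (95% interval -0.269 to 0.172, edgeR adjusted p 0.828). All 3 receptors had their highest stage mean at HH15-16, with 70.8 ± 6.87 CPM for IGF1R, 66.5 ± 8.09 CPM for IGF2R and 63.4 ± 5.66 CPM for INSR (SD, n = 3). The test of the later step minus the earlier one did not separate this from the spread, with values of -0.30, -0.27 and -0.33 (log2) and an edgeR adjusted p of 0.932 each.

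Among the 9 genes tested, the binding proteins IGFBP5 and IGFBP4 differed most between stages, in the later step and the whole interval. In the earlier step the largest log2 fold change was that of IGF1R, at 0.21. IGFBP5, IGFBP4, IGFBP3 and IGFBP2 were the 4 genes of the 9 whose 3 pools at HH17-18 all lay above the 3 pools of HH13-14. Of all genes tested, 31.4% had pools that did not overlap between these stages, and 16% had all pools of HH17-18 higher. No gene of the 9 had all pools lower, against 15.4% of all genes. Between HH15-16 and HH17-18 the pools of 1 of the 9, IGFBP5, did not overlap, where 11.5% of all genes did not and 5.94% were all higher. Between HH13-14 and HH15-16 it was 0 of the 9, where it was 16.6% of all genes. Without replicate 2 of HH17-18, which stood apart in its marker sums, the count of the 9 genes past the threshold was again 0. That fit called 1.6% of all genes from HH13-14 to HH17-18, against 4.51% with all pools.

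IGFBP5 (ENSGALG00010019277, chromosome 7, 22854992 to 22876649) encodes a binding protein that in mammals also attaches to extracellular matrix. It was at 9.36, 7.95 and 7.88 CPM in the pools of HH13-14 and at 7.97, 7.23 and 10.8 CPM in those of HH15-16. At HH17-18 the pools were at 12.5, 28 and 12.1 CPM. The pools of the first and second stages overlapped, all pools of HH17-18 lay above them, and replicate 2 of HH17-18 was the highest pool of all. That pool was high on each lane, with 819 counts on lane 7 and 711 on lane 8. The mean was 17.5 ± 9.06 CPM at HH17-18 against 8.66 ± 1.88 at HH15-16 and 8.4 ± 0.834 at HH13-14 (SD, n = 3). The log2 fold change over the interval was 1.06 (SE 0.305, 95% interval 0.383 to 1.74, unadjusted p 0.00565, edgeR adjusted p 0.0792). The log2 fold change was 0.04 for the earlier step (edgeR adjusted p 0.975) and 1.01 for the later step (unadjusted p 0.00719, edgeR adjusted p 0.308), and the steps differed by 0.97 with an edgeR adjusted p of 0.932. DESeq2 put IGFBP5 past the threshold for the interval (adjusted p 0.00822) and for the later step (adjusted p 0.0417), and so did edgeR with no filter for the interval (adjusted p 0.0452; 3.57% of genes called). Without replicate 2 of HH17-18 the edgeR log2 fold change over the interval was 0.55 (adjusted p 0.2) and that of the later step 0.50 (adjusted p 0.541).

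IGFBP4 (ENSGALG00010022511, chromosome 27, 4441013 to 4446307), which encodes a binding protein known as an inhibitor of IGF action and as a substrate of the protease PAPPA, was at 35.3, 40.9 and 30.5 CPM in the pools of HH13-14. It was at 29.1, 34.8 and 49.6 CPM in those of HH15-16 and at 48.8, 67.8 and 47.5 CPM in those of HH17-18. Replicate 3 of HH15-16 lay within the range of HH17-18, so that these stages overlapped, and replicate 2 of HH17-18 was again the highest pool. The means were 35.6 ± 5.2, 37.8 ± 10.6 and 54.7 ± 11.3 CPM (SD, n = 3). The log2 fold change was 0.62 over the interval (SE 0.204, 95% interval 0.168 to 1.07, unadjusted p 0.0119, edgeR adjusted p 0.116) and 0.53 for the later step (unadjusted p 0.0248, edgeR adjusted p 0.446). For the interval the adjusted p was 0.046 in DESeq2 and 0.045 in the edgeR fit of these stages alone, which called 8.09% of genes. Without replicate 2 of HH17-18 the log2 fold change was 0.435 over the interval (edgeR adjusted p 0.322) and 0.35 for the later step (edgeR adjusted p 0.74).

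**Figure D2:**
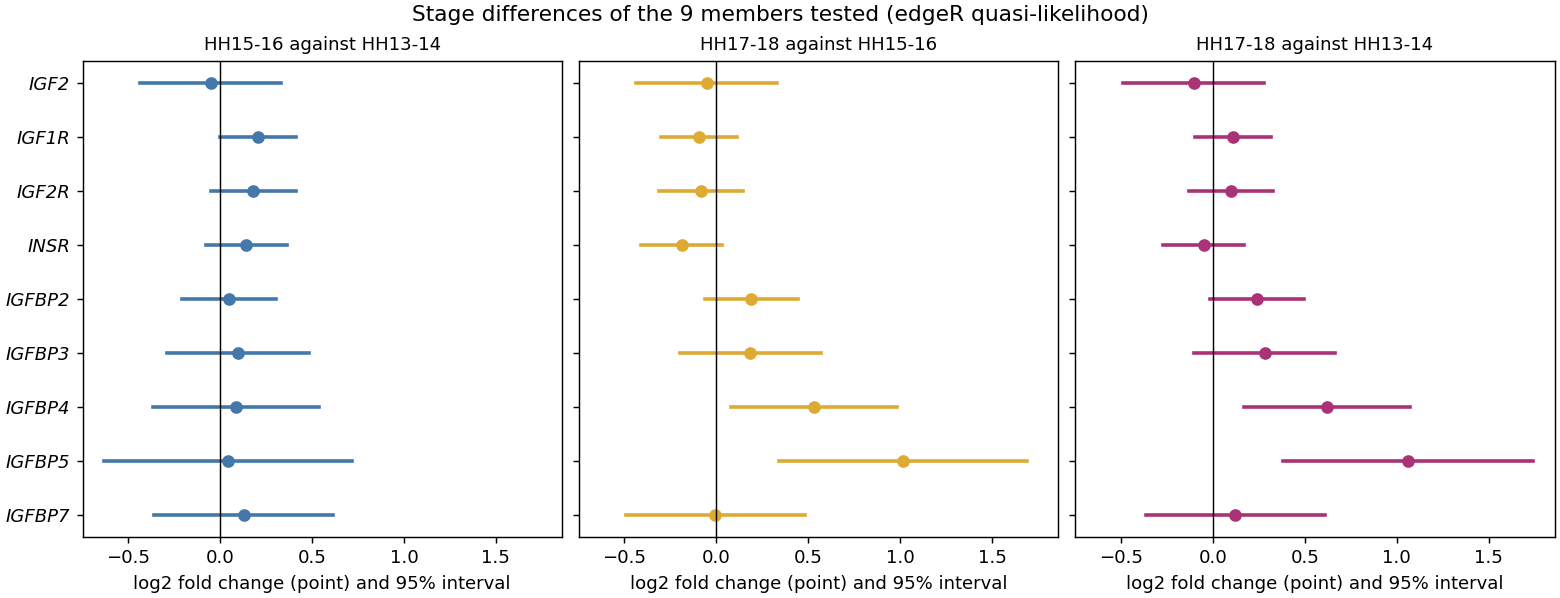
Log2 fold change of the 9 genes tested (points) with its 95% interval (lines) in edgeR, for the earlier step, the later step and the whole interval, on a shared horizontal scale. The intervals of IGFBP4 and IGFBP5 lie above 0 for the later step and the whole interval, at 0.168 to 1.07 and 0.383 to 1.74 for the latter, before adjustment over all genes; every other interval reaches below 0.

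IGFBP2 (ENSGALG00010019282, chromosome 7, 22879236 to 22951723), the neighbour of IGFBP5, was at 60.9, 58.8 and 66.8 CPM in the pools of HH13-14 and at 52.2, 68 and 72.8 CPM in those of HH15-16. At HH17-18 it was at 73.1, 74.6 and 72.7 CPM, a spread of 1.34% of the mean, against 16.7% at HH15-16. Replicate 1 of HH15-16 was the lowest of the 9. That pool also had the lowest head mesenchyme, neuron, trigeminal placode, endothelium, blood and macrophage sums, and the highest neural tube sum. The log2 fold change over the interval was 0.24 (SE 0.115, 95% interval -0.0138 to 0.495, edgeR adjusted p 0.258). IGFBP2 and IGFBP5 stand side by side, 2586 bases apart with no other annotated gene in the gap.

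IGFBP3 (ENSGALG00010008429, chromosome 2, 54603575 to 54621232), in mammals the main carrier of IGFs in blood, was at 14.2, 17.5 and 17.7 CPM at HH13-14, at 17.8, 21.1 and 13.9 CPM at HH15-16 and at 23.5, 18 and 18.5 CPM at HH17-18. The last stage lay above the first by a narrow margin, and the second spanned the range of the first. Its log2 fold change over the interval was 0.28 (SE 0.174, 95% interval -0.101 to 0.667, edgeR adjusted p 0.382). Without replicate 1 of HH17-18, its highest pool, it was 0.15 (edgeR adjusted p 0.684). The adjacent IGFBP1, 7600 bases away with no annotated gene between, was too low to be tested. It had 2 to 6 counts in each pool of HH13-14, 4 to 8 in each of HH15-16 and 8 to 10 in each of HH17-18. Its exact Poisson 95% intervals, 0.0353 to 0.119 CPM at HH13-14 and 0.104 to 0.225 CPM at HH17-18, overlapped.

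IGFBP7 (ENSGALG00010003660, chromosome 4, 48656657 to 48686876) encodes a secreted protein related to the other binding proteins, with a low affinity for IGFs. It was at 15.3, 15.9 and 13.9 CPM at HH13-14, at 12, 19.7 and 17.6 CPM at HH15-16 and at 19, 18.7 and 11.5 CPM at HH17-18. The pools of the later stages spread to each side of the first, and the coefficient of variation was 6.93%, 24% and 26% in stage order. Its log2 fold change over the interval was 0.12 (95% interval -0.365 to 0.61, edgeR adjusted p 0.798). The annotated spans of IGFBP7 and POLR2B, taken from start to end with introns included, overlap by 3038 bases. The sources used here do not say whether counting used strand. Whether counts of IGFBP7 fell in that stretch, or belong to POLR2B, was not tested. Non-coding genes overlap IGF1, IGF2R, INSR and IGFBP5 in the same way, over 14869, 401, 1827 and 953 bases.

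Across the 9 pools IGFBP4 and IGFBP5 had the most alike profiles of any 2 of these genes. Pearson's r of their log2 CPM was 0.885 and Spearman's rho 0.8 over 9 pools, and without replicate 2 of HH17-18 they were 0.818 and 0.714. Taken as deviations from the stage means, which leaves the differences between stages out, they were 0.734 and 0.717. INSR ran the other way, with r of -0.712 to IGFBP4 and -0.758 to IGFBP5. Within each pool both genes were read from the same tissue and libraries, and the pools differ in stage and in their marker sums. These values describe 9 pools, and 36 pairs were computed, so no test is attached to them.

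The genes most like each one were sought among 9761 others that had a symbol and a mean of at least 5 CPM. For IGFBP4 they were SH3GL3, CLMP, which encodes an adhesion molecule, and EPHA3, an Eph receptor, with r of 0.984, 0.981 and 0.977 over 9 pools. For IGFBP5 they were PLPP3 (0.941), EPHA3 (0.93) and TP73 (0.921), so that EPHA3 was on both lists. For IGFBP2 they were IDH1 (0.963), COL4A2, a basement membrane collagen (0.961), and COL14A1, a fibril-associated collagen (0.956). IGF2 was closest to ACSF2 (0.946), SMAD6, an inhibitor of BMP signalling (0.931), and AP3S2 (0.923). Among those for IGFBP7 were DDX11 (0.942) and GSTK1 (0.941), and IGFBP3 was closest to DHRSX (0.92), ZDHHC1 (0.915) and G6PC2 (0.909). For the receptors the closest genes were ZNF644 (0.938), NID1 (0.905) and HBP1 (0.904) for IGF2R, PNISR (0.91), TBC1D9B (0.909) and DENND4C (0.903) for IGF1R, and C11orf87 (0.899), FGD3 (0.889) and SLC16A9 (0.888) for INSR. Being the highest of 9761 values over few pools, all these correlations describe likeness in these pools alone.

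Several marker lists had sums that moved with IGFBP2, IGFBP4 and IGFBP5 over the pools, the neuron list among them. The neural crest and glia list did not. The neuron sums were at 1201 to 1237 CPM at HH13-14, at 962 to 1343 CPM at HH15-16 and at 1258 to 2006 CPM at HH17-18, with 4 of 12 markers past the threshold over the interval, all higher. The neural crest and glia sums were at 708 to 831, 527 to 756 and 476 to 644 CPM in the same order, with 2 of 9 past the threshold, both lower. Trigeminal placode had 1 of 8 past it, lower, and surface ectoderm had 2 of 8 higher and 1 lower. Blood had 1 of 4 tested, higher, and the endothelium, neural tube and skeletal muscle lists had 0. Of all genes tested, 2.4% were higher and 2.12% lower past the threshold over the interval. Between HH13-14 and HH17-18 the pools of the neuron markers TUBB3, SYT1, GAP43, ISL1, POU4F1 and NEUROD1 overlapped. NEUROD1 was at -0.41 on the log2 scale. In the neural crest and glia list the pools of SOX10, ERBB3 and FABP7 overlapped, with log2 fold changes of -0.32, 0.07 and 0.17. The summed head mesenchyme markers were at 2653 to 2900 CPM at HH13-14, at 1901 to 3519 CPM at HH15-16 and at 2867 to 4240 CPM at HH17-18, and 2 of the 11 tested were past the threshold over the interval, both higher. COL1A2, LUM, POSTN and OSR2 had all pools higher at HH17-18 than at HH13-14, and the pools of the other head mesenchyme markers overlapped. Abundant genes weigh most in such sums. Over the pools COL1A1 and COL1A2 had means of 1108 and 857 CPM, TUBB3 of the neuron list 877 CPM and NES of the neural tube list 634 CPM. The pool with the highest head mesenchyme sum, replicate 2 of HH17-18, was also the highest for IGFBP4 and IGFBP5, and had the lowest neural tube sum, at 605 CPM. The summed macrophage markers, all 10 of which were found, were at 18.1 to 21.6 CPM at HH13-14, at 15.6 to 47.4 CPM at HH15-16 and at 43.2 to 86.5 CPM at HH17-18, with 4 past the threshold, all higher. SPI1, a defining macrophage factor, had a mean of 0.178 CPM at HH13-14, with a lowest pool of 0.0354 CPM, and 3.78 CPM at HH17-18. The pools of MARCO and MRC1, of the same list, overlapped between these stages. Their log2 fold changes were 0.19 and 0.14 (edgeR adjusted p 0.908 and 0.777). The 5 blood markers found of 10 summed to 266 to 378 CPM at HH13-14, 246 to 544 CPM at HH15-16 and 476 to 680 CPM at HH17-18. HBA1, HBAD and HBBA, with means of 244, 138 and 40.6 CPM, had all pools higher at HH17-18 than at HH13-14. TAL1 was at -0.41 on the log2 scale (edgeR adjusted p 0.203), and its pools overlapped. HBE1 was near 0, at a mean of 0.0179 CPM. The endothelium sums, at 535 to 588 CPM at HH13-14 and 513 to 651 CPM at HH17-18, overlapped. Over the 9 pools, Pearson's r of a gene's log2 CPM with the log2 of the summed CPM of head mesenchyme markers was 0.836 for IGFBP2, 0.865 for IGFBP4 and 0.709 for IGFBP5. In the same gene order it was 0.853, 0.817 and 0.723 with the macrophage sum and 0.785, 0.733 and 0.669 with the blood sum. With the endothelium sum it was 0.725, 0.562 and 0.456, and with the neuron sum 0.593, 0.6 and 0.481. With the trigeminal placode sum it was 0.62, 0.485 and 0.363, and with the neural crest and glia sum 0.0405, -0.101 and -0.147. With the surface ectoderm sum it was 0.242, -0.0961 and -0.167. It was -0.57, -0.654 and -0.67 with the neural tube sum, and -0.172, -0.621 and -0.562 with the skeletal muscle sum. IGFBP3, also higher in all pools of HH17-18 than of HH13-14, was at -0.0485 with the head mesenchyme sum. With the macrophage, blood, and neural crest and glia sums IGFBP3 was at 0.133, 0.451 and -0.728. IGF2, whose pools overlapped, was at 0.618 with head mesenchyme, 0.675 with endothelium, 0.223 with macrophage and -0.608 with neural tube sums. Gene and sum were read from the same libraries in each pool, and the pools differ in stage, so the values are descriptions. The part of these cell types in the levels of IGFBP2, IGFBP4 and IGFBP5 was not tested.

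**Figure D3:**
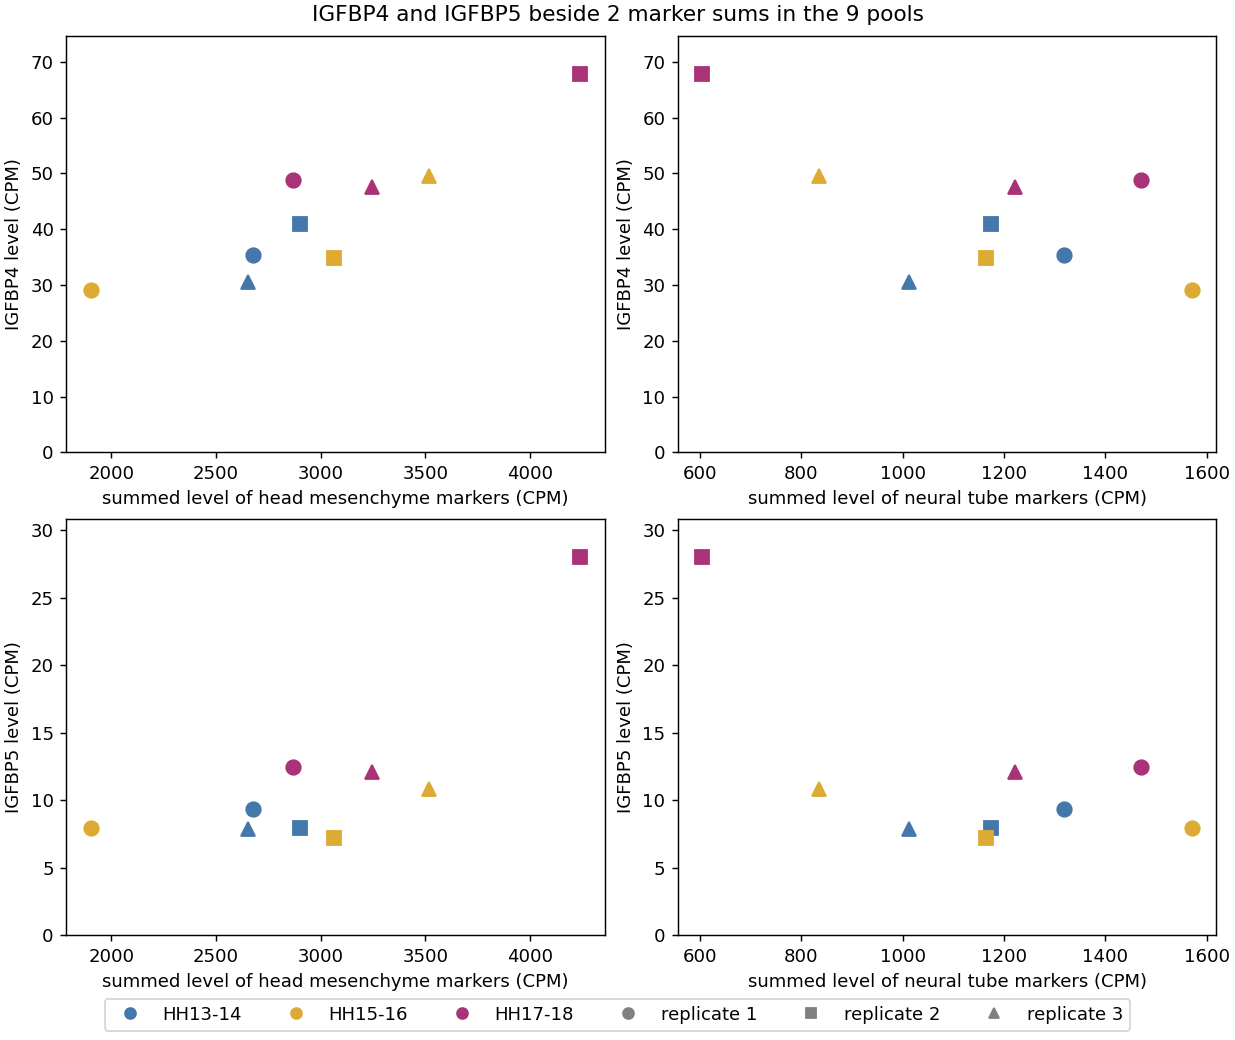
Level of IGFBP4 (upper row) and IGFBP5 (lower row), in CPM, against the summed CPM of head mesenchyme markers (left) and neural tube markers (right) in the 9 pools; colour gives the stage and symbol the replicate number, and the horizontal axes do not start at 0. Replicate 2 of HH17-18 lies at 4240 CPM for head mesenchyme and 605 CPM for neural tube, and is the highest pool for both genes.

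The rest of the pathway was read from a list of 65 further genes, of which 58 were in the table and 56 were tested. From HH13-14 to HH17-18, 3 were higher and 1 lower past the threshold, where 2.4% of all genes tested were higher and 2.12% lower. DESeq2 called 4 higher and 4 lower, where it called 9.62% of all genes it tested. At an unadjusted p under 0.05 there were 17 of 56, against 21.6% of all genes. The median log2 fold change was -0.05 over the 56 and 0.12 over the 9 genes above, against 0.02 over all genes tested. For each of the steps 0 of 56 passed, with 8 at an unadjusted p under 0.05 for the earlier (10.1% of all genes) and 6 for the later one (9.32% of all genes). The 4 genes were ADAM12, SESN1, SESN3 and IRS2.

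ADAM12, a metalloprotease that in humans has been shown to cut IGFBP3 and IGFBP5, was at 7.87, 8.82 and 10.7 CPM at HH13-14, at 12.3, 10.3 and 12.2 CPM at HH15-16 and at 14.2, 22.1 and 21.2 CPM at HH17-18. All pools of HH17-18 lay above all others. It rose by 1.07 on the log2 scale over the interval, with SE 0.19 and edgeR adjusted p 0.0179, and its effect of stage also passed (edgeR adjusted p 0.0443). The call for the interval was lost in 4 fits that each left out a pool, replicates 1 and 2 of HH13-14 and replicates 2 and 3 of HH17-18, with edgeR adjusted p-values of 0.0543 to 0.0904. In that order, these fits called 0.539%, 0.658%, 1.6% and 0.975% of all genes, against 4.51% with all pools.

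IRS2, an adaptor that couples the insulin and IGF receptors to PI3-kinase, was at 41.8, 52.3 and 47.6 CPM at HH13-14, at 47.7, 39.2 and 33.6 CPM at HH15-16 and at 28.9, 27.5 and 35 CPM at HH17-18. The pools of the first and last stages did not overlap. On the log2 scale IRS2 fell by 0.63 from HH13-14 to HH17-18, with SE 0.146 and edgeR adjusted p 0.0391. The edgeR adjusted p was 0.055 on lane 7 alone, 0.0568 with the replicate block, and 0.0538 to 0.152 in the fits without replicate 1, 2 or 3 of HH13-14, replicate 2 of HH15-16 or replicate 1, 2 or 3 of HH17-18. Those fits without a pool called 0.539% to 3.84% of all genes. The lane 7 fit called 3.66% and the replicate block 4.94%, against 4.51% in the main fit. Its relative IRS1 was 60.5 ± 2.31 CPM at HH13-14 and 45.5 ± 8.69 CPM at HH17-18 (SD, n = 3; edgeR adjusted p 0.19). In the receptor adaptor group IRS2 was the 1 of 12 genes tested that passed the threshold. The group also holds regulators such as SOCS2, SOCS3, GRB10 and GRB14. Of the 12 log2 fold changes 11 were negative, that of IRS2 included. The median of the 12 was -0.29, against 0.02 over all genes tested, and the shared direction was not tested. RACK1 was at -0.19 on that scale (edgeR adjusted p 0.134), GRB2 at -0.02 (0.898) and SHC1 at -0.24 (0.245).

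SESN1 and SESN3 encode sestrins, which in mammals restrain the TOR kinase and are among the genes that FOXO factors or p53 activate. SESN1 was at 61.5, 56.3 and 65 CPM at HH13-14, at 96.8, 90.7 and 77.8 CPM at HH15-16 and at 80, 82.2 and 77.8 CPM at HH17-18. The pools of HH13-14 lay below all others. SESN1 rose by 0.39 on the log2 scale over the interval, with SE 0.0938 and edgeR adjusted p 0.0427, and its effect of stage passed (edgeR adjusted p 0.046). For the earlier step its log2 fold change was 0.54, the fourth smallest p of the 17724 genes (unadjusted p 0.000161, edgeR adjusted p 0.405, DESeq2 adjusted p 0.00302). SESN3 was at 9.53, 7.87 and 10.8 CPM at HH13-14, at 12.5, 16.7 and 17.1 CPM at HH15-16 and at 14.4, 30.3 and 17.6 CPM at HH17-18. It rose by 1.14 on the log2 scale, with SE 0.259 and edgeR adjusted p 0.0367, and its highest pool was again replicate 2 of HH17-18. Without that pool the values were 0.77 (edgeR adjusted p 0.0868) for SESN3 and 0.37 (edgeR adjusted p 0.122) for SESN1. The calls were also lost without replicate 1, 2 or 3 of HH13-14, replicate 2 of HH15-16 or replicate 3 of HH17-18, with edgeR adjusted p-values of 0.0584 to 0.176 for SESN1 and 0.0512 to 0.143 for SESN3. For SESN1 they were lost as well without replicate 1 of HH17-18 (edgeR adjusted p 0.0845), on lane 7 and lane 8 alone (0.0564 and 0.0509) and with the replicate block (0.0561). The fits without a pool in which these calls were lost called 0.539% to 3.84% of all genes. Lane 7 called 3.66%, lane 8 3.55% and the replicate block 4.94%, against 4.51% in the main fit.

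The other groups of the pathway held no gene past the threshold over the interval. In the group of 9 FOXO factors and FOXO target genes that holds the sestrins, the log2 fold change was 0.31 for CCNG2 (edgeR adjusted p 0.204), -0.51 for FOXO6 (0.0829) and -0.49 for CITED2 (0.0605). For the 18 PI3K-AKT-TOR genes the median log2 fold change was -0.000388, with 9 positive and 9 negative. AKT1, AKT2 and EIF4EBP1, the last a translation repressor controlled by TOR, were at -0.04, -0.05 and -0.15 (edgeR adjusted p 0.863, 0.732 and 0.246). The 3 IGF2BP genes encode proteins that bind IGF2 and other mRNAs, and their log2 fold changes were -0.32 for IGF2BP1, -0.18 for IGF2BP2 and -0.11 for IGF2BP3 (edgeR adjusted p 0.0958, 0.248 and 0.438). Among 6 further receptors, LRP1, M6PR and SORT1 were at -0.12, 0.12 and -0.17 (edgeR adjusted p 0.498, 0.472 and 0.392).

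In the binding protein and protease group ADAM12 was the 1 of 8 genes tested that passed. PAPPA, the protease of IGFBP4, was at 46.4 ± 12.3 CPM at HH13-14 and 59 ± 13.9 CPM at HH17-18 (SD, n = 3; log2 fold change 0.35, edgeR adjusted p 0.478). STC2, which encodes an inhibitor of PAPPA, was at 51.6, 48.8 and 46.6 CPM at HH13-14, at 45.5, 109 and 26 CPM at HH15-16 and at 31.4, 8.83 and 13.9 CPM at HH17-18. The pools of the first and last stages of STC2 did not overlap, but its log2 fold change, -1.44, had an edgeR adjusted p of 0.14. For HTRA1, a secreted serine protease, it was -0.66 (edgeR adjusted p 0.0857). ADAM28, a metalloprotease, was low throughout, at 0 to 0.721 CPM, and its log2 fold change of 3.40 rested on few counts (edgeR adjusted p 0.13). INS, the insulin gene, was in the table but too low to be tested.

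**Figure D4:**
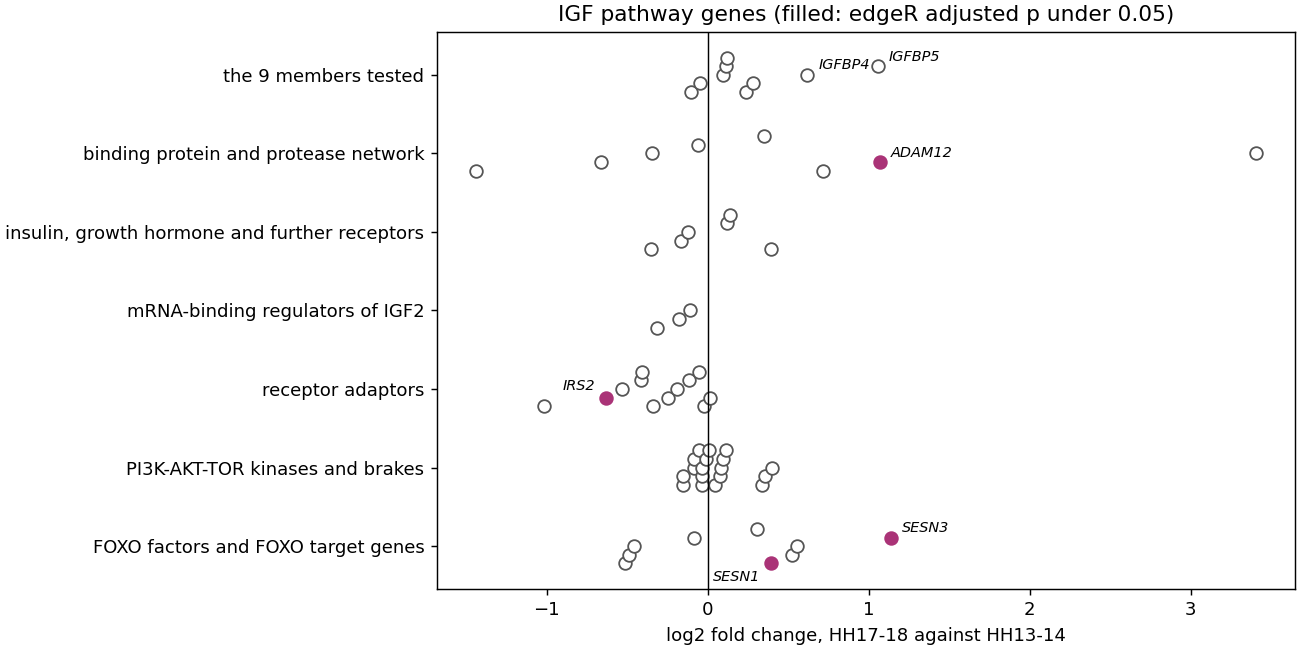
Log2 fold change from HH13-14 to HH17-18 (horizontal axis) of the 9 IGF genes tested and of 56 other pathway genes in 6 groups (rows); each point is a gene, vertical offsets within a row only separate points, and filled points had an edgeR adjusted p under 0.05. The filled points are ADAM12 at 1.07, SESN3 at 1.14, SESN1 at 0.39 and IRS2 at -0.63, and IGFBP5 is unfilled at 1.06; the unfilled point farthest to the right is ADAM28 at 3.40.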

How the data were processed

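The authors deposited whole-number counts per gene for 18 libraries, 2 technical replicates of each of 9 pools, with gene identifiers and symbols. The submitters' processing notes name Trim Galore, HISAT2, featureCounts and the build GRCg7b, without versions, and the strand setting is not given in the sources used here. Column names gave each sample, and 0 columns were left unused. Counts of technical replicates were summed, which gave n = 3 per stage, and the tests set differences between stages against the spread between these pools.

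Genes were kept by filterByExpr (minimum count 10), which left 17724, and fitted with TMM in edgeR 4.0.16 (R 4.3.3, glmQLFit and glmQLFTest, no covariates, two-sided, all 9 pools). P-values were adjusted by the Benjamini-Hochberg method over all genes tested, at a threshold of 0.05. The standard error is the one the test statistic implies, and the 95% interval uses its degrees of freedom. The procedure was tested on simulated data for HH17-18 against HH13-14. Among the genes tested there, 196 had been made to differ by 1 on the log2 scale. The procedure recovered 52% of them, and 6.42% of its calls were false. A gene that did not pass the threshold may thus still have changed. The share recovered is over all genes changed in the simulation, and the 95% interval of a gene gives its own limits. From HH13-14 to HH17-18 that interval reached 1 on the log2 scale for IGFBP4 (up to 1.07) and IGFBP5 (up to 1.74). It did not for any other of the 9 IGF genes tested. Correlations used log2 CPM at a prior count of 2. DESeq2 1.42.0 was an alternative.

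The members, gene lists and tests were chosen with earlier results of these data known. Named were all 10 members, pathway genes past the threshold and up to 3 more per group with the highest mean CPM, and the 3 genes most like each member, of which 1 is not reported here. IRS1, STC2's single pools, ADAM28, IGFBP1, SPI1, SNAI2, INS and the other single markers were named after their values were seen. Coordinates come from RefSeq's table of GRCg7b.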

Additional observations from a re-analysis of the deposited data

How the results depend on the processing

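Of 486 recomputed log2 fold changes of the 9 genes tested, over 18 alternatives, 463 kept their direction and side of the threshold, 5 newly passed it (IGFBP4 and IGFBP5, as given above) and 18 reversed. Genes past the threshold (0 in each comparison) were 1 for the effect of stage and 1 for the later step with the DESeq2 test. Over the interval, the DESeq2 test called 2 higher, the fit with no filter 1 and the fit of the 2 stages compared 1. None of the fits without 1 pool called any, where those fits called 0.539% to 8.3% of all genes over the interval. Pathway genes over the interval (3 higher, 1 lower) were 0 to 4 higher and 0 to 6 lower without 1 pool, with 4 and 6 both without replicate 1 of HH15-16. The fit without that replicate called 8.3% of all genes, against 4.51% in the main fit. Lower were 4 in the DESeq2 test, 3 when no filter was used, 0 on lane 7, 2 with the replicate block and 4 in the fit of the 2 stages. In that order, these settings called 9.62%, 3.57%, 3.66%, 4.94% and 8.09% of the genes they tested. The causes were not tested.

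Reversals concerned differences near 0. On lane 8 alone, the earlier step of IGFBP5 was -0.026 and the later step of IGFBP7 0.0411. Without 1 pool, the earlier step ran from -0.191 to 0.0899 for IGF2, -0.0489 to 0.172 for IGFBP2, -0.0526 to 0.24 for IGFBP3, -0.158 to 0.236 for IGFBP4, -0.146 to 0.159 for IGFBP5 and -0.0214 to 0.302 for IGFBP7. The later step ran from -0.207 to 0.0878 for IGF2, -0.155 to 0.0174 for IGF2R and -0.193 to 0.189 for IGFBP7, and the interval from -0.222 to 0.0305 for IGF2 and -0.144 to 0.0213 for INSR.

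The labels number pools 1 to 3 at each stage without saying that equal numbers were related. Taken as deviations from stage means, pools of equal number correlated at -0.0633 to 0.303 (9 pairs), pools of different number at -0.399 to 0.322 (18 pairs). With the replicate block 0 of the 9 genes passed in any comparison. Halved counts, chosen after seeing the data, kept every count within 1.5 times. Depth limits IGF1, whose counts lay near the limit of detection.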
